A study of Mus musculus with 6 samples.

Results

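The genes of the epidermal growth factor (EGF) receptor system were examined in AML-12 cells, a mouse hepatocyte line, with and without a hairpin against manganese superoxide dismutase (MnSOD). The system was taken as 10 genes, the ligand genes Ereg, Areg, Hbegf, Tgfa, Btc, Epgn and Egf and the receptor genes Egfr, Erbb2 and Erbb3, of which 9 had a probe set annotated to that gene alone among 19938 such genes. Areg had no named probe set and was not analysed here. Each of the 9 genes had 1 such probe set, so the rule of taking the brightest one made no choice between probe sets. Erbb2 also had 1 probe set annotated to several genes, which did not enter its values. The members were chosen by gene family with their differences between the groups already known, and their rows were selected on mean brightness over the 6 arrays, so the counts of these genes below describe them and are no independent evidence.

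The samples were 3 per group, each on its own Affymetrix array for mouse genes, titled as biological replicates 1 to 3. The siMnSOD cells carried a retroviral pSUPER.retro.puro vector expressing a hairpin with an MnSOD sequence, designed for a mild silencing, and the siScramble cells the same vector with a scrambled hairpin that matches no gene. Both were stable lines selected with puromycin and grown in medium with fetal calf serum, and the arrays used separate frozen batches of cells. With 1 hairpin per group, an effect of the target and an effect of that hairpin or of that selected line cannot be told apart, and nothing in the labels says whether each replicate had its own transduction. The p-values therefore measure only the spread between these samples, which may be technical. The study set out to find genes whose RNA level differs when MnSOD is reduced.

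EGF family ligands are made as membrane-bound precursors that metalloproteases such as ADAM17 release, and they bind and pair receptors of the ErbB family. EGFR takes all of the ligands examined here, ERBB2 has no known ligand and acts as the preferred partner, and ERBB3 has a weak kinase and signals through its partners. Active receptors feed the RAS-ERK and PI3K-AKT pathways, and in the liver this system supports the division of hepatocytes after injury. The AML-12 line was established from a mouse carrying a human TGF-alpha transgene, so its cells can receive this ligand from a source other than the mouse Tgfa gene.

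The hairpin's target was lower on each knockdown array. Sod2, which encodes MnSOD, read 98.8, 121 and 52.3 intensity units in siMnSOD replicates 1, 2 and 3 and 248, 254 and 293 in the controls (log2 difference −1.63, SE 0.30, adjusted p = 0.037 in limma). An adjusted p under 0.05 over all tested rows is called a change below. That call of Sod2 was lost without siMnSOD replicate 1 (adjusted p = 0.10) or 2 (0.072), without siScramble replicate 1 (0.12) or 2 (0.13), and with arrays centred on their medians (0.069). Among all genes 432 were called higher and 316 lower, or 365 and 140 after such centring. The total of 748 became 168 and 77 without siMnSOD replicates 1 and 2, 183 and 151 without siScramble replicates 1 and 2, and 2238 without siScramble replicate 3. Control replicate 3 stood apart from the other controls, with an SD of log2 differences over all probe sets of 0.525 and 0.522 from replicates 1 and 2, which differed from each other by 0.277. Of the hepatocyte markers, Trf, Hnf4a, Apoa1, Krt8 and Krt18 lay above the background guide of 19.4 intensity units on all 6 arrays, whereas albumin (Alb) lay under it on all of them, between 11.3 and 16.2. The guide is the 95th percentile of 1027 olfactory receptor genes. The summed intensity of the 9 measured hepatocyte markers was 14790 to 16850 in the knockdown and 10530 to 14120 in the controls. Most of each sum came from Krt8 and Krt18. At an unadjusted p under 0.05 in limma 2 of the 9 were higher and 0 lower, against 16.7% of all genes in either direction. Krt18 (0.13, SE 0.22), Trf (0.07, SE 0.31) and Alb (0.01, SE 0.18) were not called. Hnf4a, which encodes a transcription factor of hepatocytes, rose. It read 530, 581 and 461 in the knockdown and 269, 258 and 210 in the controls (1.09, SE 0.14, adjusted p = 0.013 in limma), a call lost without siMnSOD replicate 1 (0.065) or 2 (0.080) or siScramble replicate 2 (0.064). The keratin gene Krt8 lay above the controls on each knockdown array without passing the threshold (0.59, SE 0.17, adjusted p = 0.12). The part of these marker differences in the results below was not tested.

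Epiregulin was the member that changed. Ereg, which encodes a ligand of EGFR and ERBB4 that is induced in inflamed and regenerating tissue, fell to 16.9% of the control level. It read 202, 131 and 181 intensity units in siMnSOD replicates 1, 2 and 3, against 1043, 1113 and 851 in the siScramble replicates. The lowest control array thus lay far above the highest knockdown array. The group means were 171 ± 36.1 (SD, n = 3) and 1002 ± 136 (SD, n = 3), the log2 difference was −2.56 (SE 0.19, 95% interval −3.01 to −2.11) and its adjusted p was 0.0029 in limma. Only 10 of the 19938 genes had a more negative difference. Ereg was the 1 member called of 9, while 3.75% of all genes were called in either direction and 1.58% were called lower. The call held in each of the alternatives run, with adjusted p between 0.0013 and 0.021, and set against the control of the same number the gene stood at 19.3%, 11.8% and 21.3% in replicates 1, 2 and 3. An exact permutation test of 3 against 3 arrays cannot give a two-sided p below 0.1. Less RNA per cell and fewer cells with a transcript cannot be told apart in these bulk samples.

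**Figure D1:**
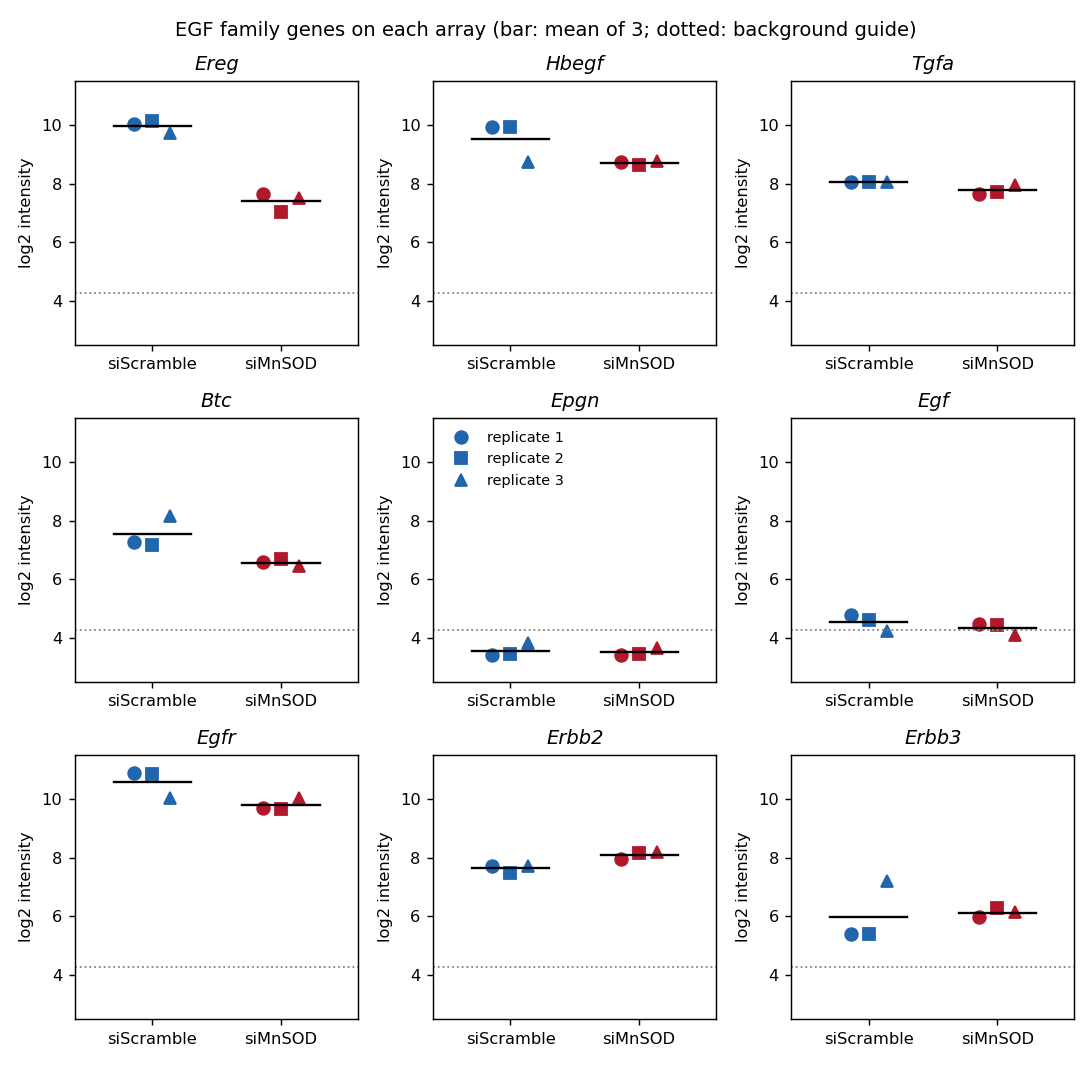
Log2 intensity of the 9 measured EGF family genes on each array, with siScramble arrays in blue and siMnSOD arrays in red, symbols for replicates 1 to 3, bars for the group means and a dotted line at the background guide of 4.28. Ereg is separated widely between the groups, control replicate 3 lies at the knockdown level for Hbegf and Egfr and far above all other arrays for Erbb3, and Epgn lies under the guide on all arrays.

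The other ligands did not pass the threshold with all 6 arrays. Hbegf encodes heparin-binding EGF-like growth factor, an EGFR and ERBB4 ligand that binds matrix heparan sulfate. It read 422, 398 and 434 in the knockdown and 973, 966 and 428 in the controls. Control replicates 1 and 2 were thus 532 units or more above each knockdown array, and control replicate 3 lay among the knockdown arrays. The log2 difference was −0.82 (SE 0.31, 95% interval −1.57 to −0.08, adjusted p = 0.25 in limma), and without control replicate 3 it was −1.21 with an adjusted p of 0.0018.

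Betacellulin, the product of Btc, binds EGFR and ERBB4. Btc read 95.3, 104 and 86.9 in the knockdown and 153, 144 and 289 in the controls, with a log2 difference of −0.96 (SE 0.27, 95% interval −1.60 to −0.33, adjusted p = 0.12 in limma). The groups did not overlap, but control replicate 3 was the highest array by 135 units. Without that array the difference shrank to −0.64 and passed the threshold (adjusted p = 0.021). Set against the control of the same number, the knockdown stood at 62.1% and 72.4% in replicates 1 and 2 and at 30.1% in replicate 3.

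Mouse Tgfa, the gene of transforming growth factor alpha, read 200, 210 and 246 in the knockdown and 263, 263 and 263 in the controls, which differed from one another by an SD of 0.00066 on the log2 scale. Each knockdown array lay below the controls, with a log2 difference of −0.27 (SE 0.11, 95% interval −0.54 to −0.0010, adjusted p = 0.31 in limma), or −0.36 in replicates 1 and 2 alone (adjusted p = 0.022). Whether this probe set also detects the human transgene was not tested.

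Epgn and Egf were at or near background. Epgn, the gene of epigen, read 10.6 to 12.6 in the knockdown and 10.7 to 14.2 in the controls, under the guide on all 6 arrays, so that a difference could not be detected. Egf, the gene of the founding ligand of the family, read 22.3, 21.7 and 17.1 in the knockdown and 27.5, 24.5 and 18.9 in the controls. It was above the guide on 4 arrays and replicate 3 was the lowest of each group. Its log2 difference was −0.21 (SE 0.18, 95% interval −0.63 to 0.22, adjusted p = 0.80 in limma).

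No receptor gene passed the threshold with all 6 arrays. Egfr and Erbb2 both lie on chromosome 11, and the 250 bases upstream of their starts are shown because these receptor partners had differences of −0.80 and 0.46. The difference between them was not tested. The sequences are RefSeq's on build GRCm38.p6, plus strand, at chr11:16751953-16752202 for Egfr and chr11:98412234-98412483 for Erbb2. Capitals mark the motifs found on either strand.
Egfr: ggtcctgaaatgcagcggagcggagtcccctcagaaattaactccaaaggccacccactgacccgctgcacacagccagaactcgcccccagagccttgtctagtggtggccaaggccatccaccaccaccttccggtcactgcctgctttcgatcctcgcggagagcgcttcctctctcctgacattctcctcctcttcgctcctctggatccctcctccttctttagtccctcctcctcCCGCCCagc
Erbb2: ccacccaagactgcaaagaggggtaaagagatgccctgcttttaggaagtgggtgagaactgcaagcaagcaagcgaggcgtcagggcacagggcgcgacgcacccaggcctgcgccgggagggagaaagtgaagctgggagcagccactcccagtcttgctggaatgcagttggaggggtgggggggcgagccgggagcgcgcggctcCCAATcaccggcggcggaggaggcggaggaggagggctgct
The search covered the GC box (GGGCGG) and the box named for its letters, CCAAT. It also covered the TATA box, written TATAAA, and the AP-1 site, written TGANTCA. The CArG box was searched by its usual consensus, and no match overlapped another in these windows. Egfr held 1 GC box and Erbb2 1 CCAAT box, and neither held any of the others. Over 32851 promoter windows of the same length, 32.7% held the GC box, 33.8% the CCAAT box, 12.4% the TATA box, 6.75% the AP-1 site and 1.47% the CArG box. Both windows were rich in G and C, at 60.8% and 66% against a median of 52.4%, with 11 and 16 CG pairs against a median of 6. Such matches describe these letters only.

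Egfr, the receptor of all 7 ligands, read 839, 809 and 1044 in the knockdown and 1886, 1882 and 1049 in the controls. Control replicates 1 and 2 lay far above the knockdown, whereas replicate 3 had almost the same level in both groups. Its log2 difference was −0.80 (SE 0.25, 95% interval −1.39 to −0.21, adjusted p = 0.15 in limma). Within replicate numbers the knockdown stood at 44.5% and 43.0% of the control in replicates 1 and 2 and at 99.5% in replicate 3. Without control replicate 3 the difference was −1.08 with an adjusted p of 0.0068.

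Erbb2 was higher on each knockdown array than on any control. It read 249, 287 and 291 in the knockdown and 209, 180 and 213 in the controls, with a log2 difference of 0.46 (SE 0.12, 95% interval 0.17 to 0.75, adjusted p = 0.10 in limma). Within replicate numbers the level was 119%, 160% and 137% of the control in replicates 1, 2 and 3. In replicates 1 and 2 alone the gene passed the threshold (0.47, adjusted p = 0.044).

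Erbb3 spread widely over the control arrays (SD 1.05 on the log2 scale), more than its groups differed. It read 62.5, 77.2 and 70.7 in the knockdown and 41.7, 42.1 and 148 in the controls. Control replicates 1 and 2 lay below all knockdown arrays and control replicate 3 above all of them. The log2 difference was 0.13 (SE 0.48, 95% interval −1.001 to 1.262, adjusted p = 0.9999 in limma), and without control replicate 3 it was 0.74 with an adjusted p of 0.015. Without control replicate 1 or 2 it turned to −0.18 or −0.17.

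**Figure D2:**
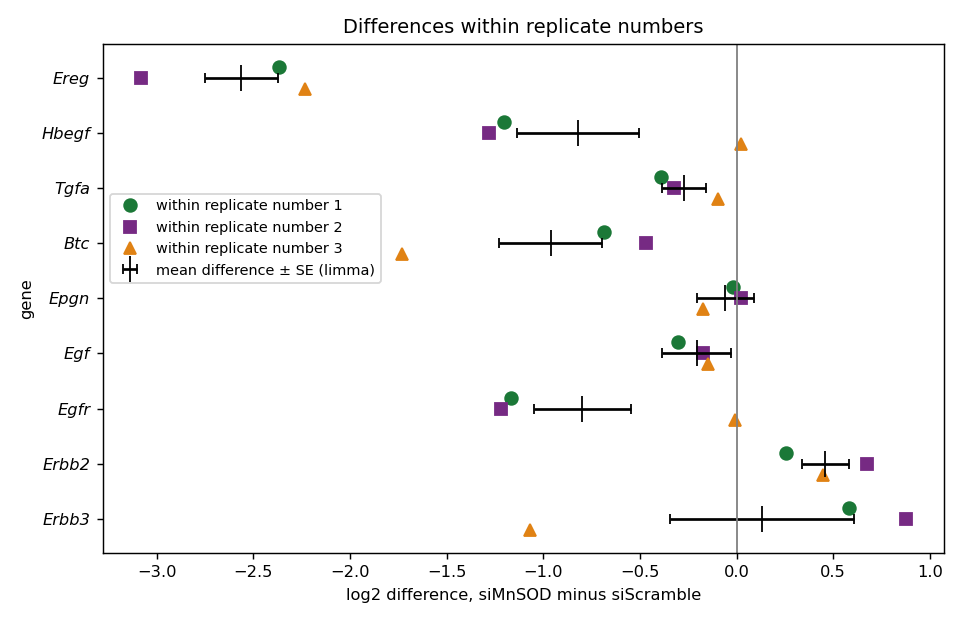
Log2 difference between the siMnSOD and the siScramble array of the same replicate number for each gene, with the mean difference and its SE from limma as a black bar. Ereg is lower within each number, Hbegf and Egfr are lower within numbers 1 and 2 and near 0 within number 3, and Erbb3 is higher within numbers 1 and 2 and lower within number 3.

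Across the family, 7 of the 9 genes had a negative difference, with a median of −0.27, against a median of 0.01 over all genes. The groups did not overlap for 4 lower genes (Ereg, Tgfa, Btc and Egfr) and 1 higher gene (Erbb2), while 20.9% of all genes had groups that did not overlap. The same 5 genes and Hbegf had an unadjusted p under 0.05 in limma, as had 16.7% of all genes. The shares over all genes include 5668 of 19938 genes under background on all arrays, against 1 of the 9 members. Among rows above the median level only, 5 of 7 members had such a p and 1 was called. Of the 10050 genes there, 2927 had such a p and 1052 were called. Within each of the 3 replicate numbers 5 genes were lower, namely Ereg, Tgfa, Btc, Egf and Egfr, against 19.8% of all genes. Without control replicate 3, 5 members were called, Ereg, Hbegf, Btc and Egfr lower and Erbb3 higher, while 11.2% of all genes were called. In replicates 1 and 2 alone 7 were called, also with Tgfa lower and Erbb2 higher, against 21.4% of all genes. Control replicate 3 lay more than 1 log2 unit from the mean of the other controls for Hbegf (−1.18) and Erbb3 (1.82), as it did for 4.4% of all genes.

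**Figure D3:**
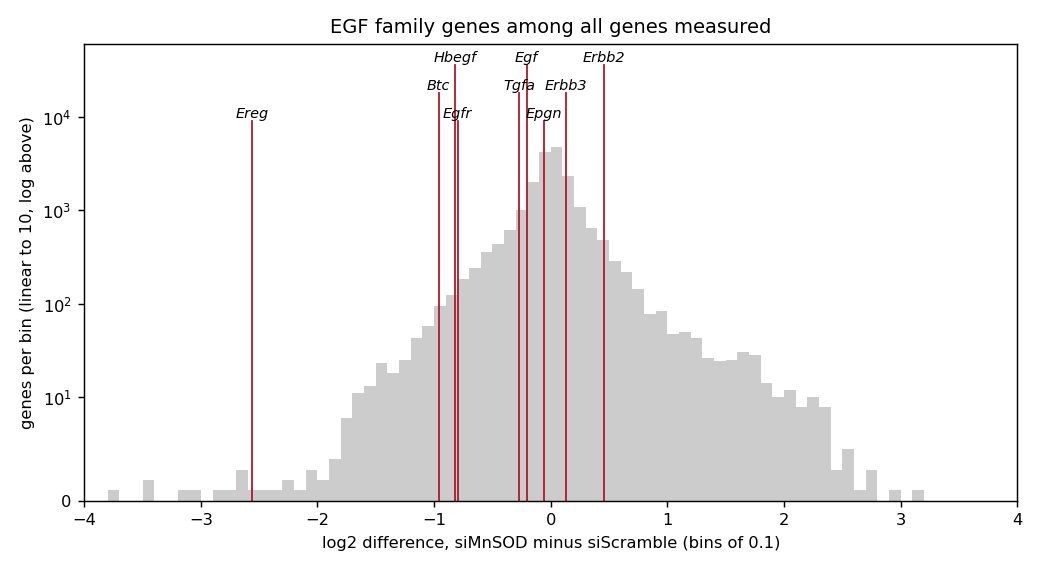
Number of genes per bin of log2 difference over 19938 genes, on an axis that is linear to 10 and logarithmic above, with a red line at each EGF family gene. Ereg at −2.56 lies in the sparse lower tail, Btc, Hbegf and Egfr lie between −0.96 and −0.80, and the other 5 genes lie between −0.27 and 0.46.

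Among the ligand genes, Epgn, Ereg, Areg and Btc lie next to one another on chromosome 5, in that order in RefSeq's annotation, with no other protein-coding gene between them. The window from 3 genes before to 3 genes after this cluster held 13 annotated genes, of which 7 code for proteins. While 3.75% of all genes were called and 1.58% called lower, 3 genes of the window that are no ligands were measured and 1 was called. This was Cxcl2, the gene of a neutrophil-attracting chemokine, whose mean was 22.0 units in the knockdown and 81.8 in the controls (log2 difference −1.87, SE 0.26, adjusted p = 0.017 in limma). The knockdown mean of Cxcl2 lay near the background guide of 19.4 units. With a pseudocount of 16 its difference was −1.34 (SE 0.21, adjusted p = 0.029 in limma). Its call was lost without siMnSOD replicate 1 (adjusted p = 0.074) or 2 (0.10) and without siScramble replicate 1 (0.077) or 2 (0.074). Mthfd2l, which encodes a mitochondrial folate enzyme and lies between Cxcl2 and Epgn, had −0.27 (SE 0.12, adjusted p = 0.32), and Parm1, beyond Btc, had a difference near 0 (−0.0013, SE 0.16, adjusted p = 0.9999). Genes of 1 cluster thus ranged from Ereg, which fell, to Epgn, which was under background. The genes whose pattern over the 6 arrays was most like that of Ereg were Dennd4a, Txnip and Acot2, with root mean square differences of 0.29, 0.30 and 0.32 between log2 profiles centred on their means. Their log2 differences between the groups were −2.255 (SE 0.191), −2.789 (SE 0.123) and −2.203 (SE 0.116). These profiles include the group difference, so the likeness largely restates it and is no separate evidence.

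Genes around the receptor were followed in 7 lists with 76 measured members of 84. With all 6 arrays 10 of them fell and none rose, at an adjusted p under 0.05 in limma, while 3.75% of all genes were called and 1.58% called lower. Their median difference was −0.23 against 0.01 over all genes. At an unadjusted p under 0.05 in limma 3 were higher and 23 lower, against 16.7% of all genes in either direction. These shares include 5668 of 19938 genes that lay under background on all arrays, as did only 3 of the 76. Among rows above the median level only, 12 of 69 genes of the lists were called lower and 1 higher. Of the 10050 genes there, 464 were called lower and 588 higher. An unadjusted p under 0.05 in limma was held by 25 of those 69 and by 2927 of those 10050. The number called was 1 without siMnSOD replicate 1 and 1 without replicate 2, where 0.843% and 0.386% of all genes were called. It was 3 without siScramble replicate 1 and 2 without replicate 2, against 0.918% and 0.757% of all genes. Without siScramble replicate 3 it was 23 (19 lower and 4 higher), against 11.2% of all genes.

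The remaining ligand and receptor genes of the ErbB family had no called member among 5 in limma, nor any at an unadjusted p under 0.05. Over all genes the shares were 3.75% and 16.7%. Erbb4, the receptor gene that some of these ligands share with Egfr, lay between 14.4 and 16.4 units and thus under background on all arrays, as did Nrg3 and Nrg4. Nrg1, named after its values were seen, encodes neuregulin 1, a ligand of ERBB3 and ERBB4. It read 194, 181 and 263 in the knockdown and 426, 468 and 210 in the controls. Its control replicate 3 lay at the knockdown level, as for Hbegf and Egfr (log2 difference −0.73, SE 0.32, adjusted p = 0.33 in limma).

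Of 8 genes of ligand processing Adam9, the gene of a membrane metalloprotease, fell (−0.53, SE 0.10, adjusted p = 0.045 in limma). Adam17, the main sheddase gene for several of these ligands, read 359, 382 and 481 in the knockdown and 322, 340 and 527 in the controls, which overlapped (0.06, SE 0.22, adjusted p = 0.9999). Of 11 receptor adaptor genes Sos2, which encodes an activator of RAS, and Gab2, which encodes a docking protein, fell by 0.84 (SE 0.12) and 0.96 (SE 0.14) on the log2 scale. Called lower were thus 1 of 8 processing genes and 2 of 11 adaptor genes, against 1.58% of all genes. The adaptor gene Eps8, named after its values were seen, lay above the controls on each knockdown array. It did not pass the threshold (0.71, SE 0.15, adjusted p = 0.052 in limma).

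Of 15 genes for the restraint and turnover of the receptor, 13 had negative differences, with a median of −0.26, and 2 fell, while 47.7% of all genes had a negative difference and 1.58% were called lower. Errfi1 encodes MIG6, a feedback inhibitor of the EGFR kinase, and read 292, 335 and 324 in the knockdown against 1057, 1081 and 554 in the controls (−1.44, SE 0.26, adjusted p = 0.036 in limma). Control replicate 3 was again the one nearest to the knockdown, but it stayed above it. Lrig1, which encodes a membrane protein that promotes receptor degradation, read 233, 267 and 266 against 498, 473 and 440 (−0.88, SE 0.11, adjusted p = 0.011).

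Of the 9 measured genes of the RAS-ERK cascade Nf1, which encodes the RAS inactivator neurofibromin, fell by 0.73 (SE 0.10) on the log2 scale. That was 1 of 9, against 1.58% of all genes called lower, and the list median was −0.08. None of the 9 measured genes of the PI3K-AKT branch was called in limma, against 3.75% of all genes, and the list median was 0.03. At an unadjusted p under 0.05 in limma 1 of them was higher and 1 lower, against 16.7% of all genes in either direction.

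Of 19 genes that ERK signalling is known to induce, 17 had negative differences, with a median of −0.33, and 4 fell, against the same 47.7% and 1.58% of all genes. At an unadjusted p under 0.05 in limma 9 were lower and 1 higher, against 16.7% of all genes in either direction. The higher one was Ccnd1, named after its values were seen (0.27, SE 0.11, adjusted p = 0.30 in limma). The transcription factor gene Egr1 read 155, 112 and 150 in the knockdown and 338, 404 and 422 in the controls (−1.49, SE 0.16, adjusted p = 0.0082 in limma). The groups were well apart, and the difference was present within each replicate number, at −1.12, −1.85 and −1.50. The phosphatase gene Dusp4, whose product inactivates ERK, fell by 0.94 (SE 0.10) and the stress-induced gene Ier3 by 1.00 (SE 0.12) on the log2 scale. Myc, named after its values were seen, read 958, 1093 and 1048 against 2687, 2693 and 1694 (−1.16, SE 0.20, adjusted p = 0.029). Fos, an immediate early gene, read 57.8, 49.3 and 143 against 208, 223 and 171, with an adjusted p of 0.11 (−1.43, SE 0.38) and of 0.012 without siMnSOD replicate 3.

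**Figure D4:**
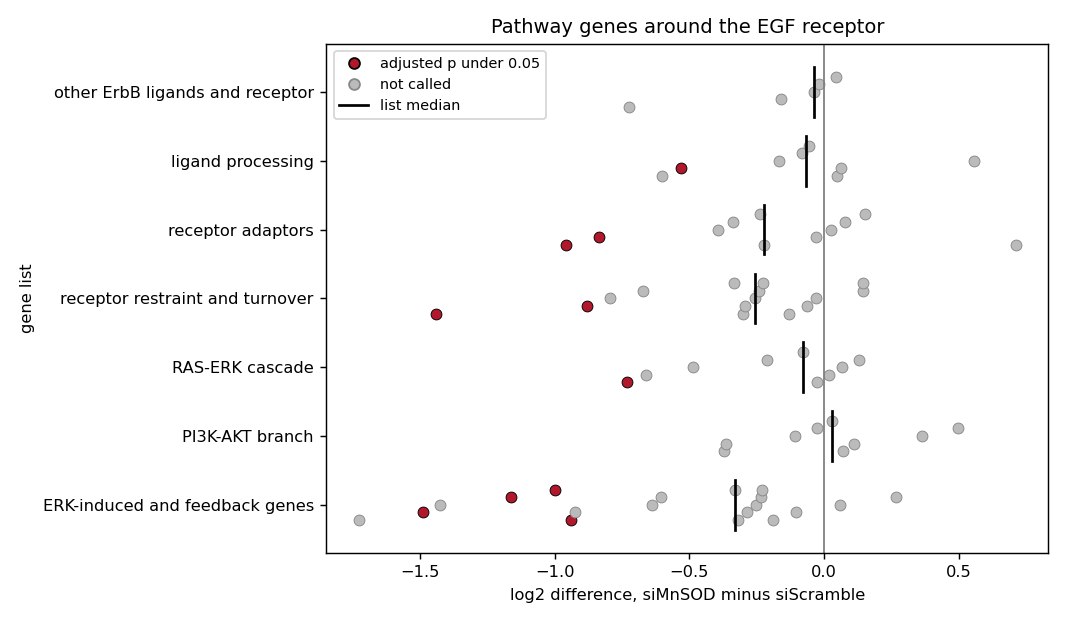
Log2 difference of each measured gene in the 7 lists around the EGF receptor, in red where the adjusted p was under 0.05, with a black bar at each list's median. All 10 called genes lie below 0, and the medians range from −0.33 for the ERK-induced genes to 0.03 for the PI3K-AKT branch.

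Egr1 kept its call whichever array was left out (highest adjusted p 0.049). The calls of the other 9 genes were each lost without siMnSOD replicate 1 and without siMnSOD replicate 2. Without the latter the adjusted p was 0.21 for Adam9, 0.11 for Sos2, 0.082 for Gab2, 0.15 for Errfi1, 0.068 for Lrig1, 0.095 for Nf1, 0.056 for Dusp4, 0.065 for Ier3 and 0.13 for Myc. Without siScramble replicate 2 all of these but Ier3 lost their calls, without siScramble replicate 1 all but Ier3 and Dusp4, and without siMnSOD replicate 3 Gab2, Errfi1 and Myc. With arrays centred on their medians Adam9, Gab2, Errfi1 and Myc missed the threshold (adjusted p = 0.091, 0.085, 0.084 and 0.085), and with all probe sets tested Adam9, Errfi1 and Myc did (0.077, 0.062 and 0.052). Adam9 also missed it after quantile normalization (0.060) and with an intensity trend (0.052).

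Of the 4 measured markers of bile duct cells 1 was called, against 3.75% of all genes called and 1.58% called lower. At an unadjusted p under 0.05 in limma 1 was higher and 1 lower, against 16.7% of all genes in either direction. The part of these markers in the results was not tested. For the 4 measured biliary markers the summed intensity was 3894 to 4180 in the knockdown and 1904 to 3292 in the controls. Krt19 and Krt7 lay above the controls on each knockdown array without passing the threshold, at 0.70 (SE 0.24, adjusted p = 0.19) and 1.15 (SE 0.54, adjusted p = 0.38) in limma. Sox9 fell (−0.86, SE 0.14, adjusted p = 0.027 in limma), a call lost without siMnSOD replicate 1 (0.11) or 2 (0.15) or siScramble replicate 1 (0.10) or 2 (0.074). Epcam lay under background on all arrays. None of the 17 measured markers of leukocytes, endothelial and stellate cells was called in limma, with 0 at an unadjusted p under 0.05. Over all genes the shares were 3.75% and 16.7%. Under background on all arrays lay 3 of 6 leukocyte, 2 of 5 endothelial and 2 of 6 stellate cell markers, where a difference could not be detected. Cd68, Csf1r, Cd14, Col1a1, Col3a1 and Des lay above it on all arrays.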

How the data were processed

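RNA of 6 samples was hybridised to Affymetrix Mouse Gene 1.0 ST arrays. The deposited table holds linear, normalized intensities of 35557 probe sets, which the authors made with RMA per the submitters' processing notes, whereas the labels' design text names MAS5. The version was not given in the sources used here. Both settings adjust arrays to one another, so a shift of all genes could be hidden. Medians of the deposited values still differed, from 26.8 units in siMnSOD replicate 2 to 33.6 in siScramble replicate 3. The source of these differences was not tested.

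A platform annotation gave 1 symbol for 21789 probe sets, and symbols were updated for 21698 of them through Entrez identifiers and RefSeq names (GRCm38.p6). The brightest probe set stood for a gene, which with 1621 probe sets of several symbols gave 21559 tested rows. Log2 intensities, without a filter or pseudocount, entered limma 3.58.1 (R 4.3.3; lmFit and eBayes) with a single term for group, with Benjamini-Hochberg adjustment over all rows. The fit was tested on simulated data with independent normal noise, whose SD per gene was capped at the median. That test did not cover an outlying array such as control replicate 3. Errors are SDs over 3 arrays or the SE of the fit, and the number of arrays limits the precision.

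Named were all members, Sod2, up to 3 called genes of smallest p per list, Fos, Egr1 and Adam17, up to 3 called neighbours of the chromosome 5 cluster and the 3 profiles most like each called member. Any other gene, marker genes included, was named after its values were seen. Members and lists were chosen with earlier results of these data known. Same-numbered samples deviated together from their group means (r = 0.30, 0.29 and 0.56 over tested rows). Across the groups, however, replicate 1 of one went more with replicate 2 of the other (0.47 and 0.41). The main fit did not pair samples. Numbers served as pairs only in the block alternative and in the values given within replicate numbers. Alternatives were the replicate number as a block, median centring, quantile normalization, all probe sets, the mean of a gene's probe sets, brighter rows only, an intensity trend, a pseudocount of 16, each array left out, and replicates 1 and 2 alone.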

Additional observations from a re-analysis of the deposited data

How the results depend on the processing

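The 1 called member remained the count under all alternatives that kept control replicate 3, the replicate block included. The count was 1 to 5 with 1 array left out and 7 in replicates 1 and 2 alone. The pathway count of 10 became 6 with median centring and 33 in replicates 1 and 2 alone, ran from 1 to 23 with 1 array left out, and was 12 with the replicate block (Eps8 higher and Socs4 lower added, both named after their values were seen). The 748 calls over all genes became 1424 with the replicate block, 432 with all probe sets tested, 77 to 2238 with 1 array left out (the lowest without siMnSOD replicate 2, the highest without siScramble replicate 3), and 4275 in replicates 1 and 2 alone. The block ended no call named in the report. Sod2 missed the threshold at −1.54 with median centring and at −1.63 with all probe sets tested (adjusted p = 0.063), and its difference ran from −1.88 to −1.27 with 1 array left out.

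Epgn, under background, turned to 0.027 with median centring and to 0.0012 in replicates 1 and 2 alone, with a range of −0.13 to 0.073 with 1 array left out. Erbb3 ran from −0.18 to 0.74 and Adam17 from −0.066 to 0.29 with 1 array left out. Of 133 values for the 9 members under the alternatives, 118 kept their direction and side of the threshold, 10 newly passed it and 5 turned in sign. The cause of these shifts was not tested. Epgn and Egf could not be fitted among brighter rows only, and low signal limits what can be seen of both.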
